A study of Mus musculus with 8 samples.

Results

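Type I interferon-stimulated genes were followed across 8 RNA-seq libraries of primary mouse microglia. The set was given as 43 gene names, of which 42 matched a name in the deposited table of 54419 gene models, and Ifi47 matched none. Because Ifit3 and Ifit3b share 1 model, the 42 names came to 41 gene models. All 41 reached 1 FPKM in at least 2 libraries and were among the 11146 named models tested. FPKM is the number of fragments per kilobase of a model scaled to the mapped fragments, so levels of different genes can be compared. The names were chosen from knowledge of the pathway and not from a measured value, and the set was proposed with earlier results of these data known.

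The microglia came from the brains of C57BL/6 mice (C57BL/6J in the culture protocol) at postnatal day 2 and were grown in medium with serum. Per the labels' protocols, cells were transfected for 24 h with a CRISPR activation plasmid for Parp14 (ACT-PARP14) or with a control plasmid (ACT-Con), and OGD, the usual abbreviation of oxygen and glucose deprivation, lasted 6 h. The titles give 4 groups of 2 libraries each, which are Con (control plasmid), PARP14 (activation plasmid), OGD_Con (control plasmid and OGD) and OGD_PARP14 (activation plasmid and OGD). The same protocol text, OGD included, stands on every sample, so the titles alone tell the groups apart. Every culture had been through transfection per the protocol, and no untransfected culture was analysed here. The share of cells that took up a plasmid is not known here. The series' design text speaks of 2 independent experiments, but the labels do not say which libraries came from which. The p-values rest on the spread of these libraries alone, and whether that spread is technical or lies between experiments is not known.

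Depth was estimated at 13.5 to 17.0 M fragments per library, and 10446 to 10662 models reached 1 FPKM. The estimate takes the commonest value of FPKM times length, over genes with 1 transcript, to be 1 fragment. The model taken for the targeted gene went against the labels. It had the highest mean of any model with a Parp14 transcript, and other such models, if present, were not examined. Parp14, at chr16:35832874-35871544 on the minus strand, in a model named Gm49730 of whose 4 transcripts 3 are those of Parp14, was listed at 12.2 and 11.5 FPKM for the PARP14 label, against 61.4 and 50.7 FPKM for the Con label. For OGD_Con it was at 12.5 and 53.7 FPKM, and for OGD_PARP14 at 55.8 and 54.6 FPKM. Whether libraries were exchanged cannot be told from the labels, and 1 of the libraries labelled OGD_Con was near the level of those labelled PARP14. Every group below, the OGD groups included, is therefore a set of libraries so labelled, and the level of Parp14 does not tell its plasmid. OGD_PARP14 replicate 2 stood apart from the rest, with a correlation of log2(FPKM + 1) of 0.880 to 0.903 with the other libraries against 0.945 to 0.986 among all other pairs, and is shown apart. Of 10 microglial markers, Fcrls, Tyrobp, Csf1r and Itgam were abundant, and Trem2 was listed at 0 under its own name. P2ry12 was at 1.99 to 3.95 FPKM, Cx3cr1 at 2.24 to 7.43 FPKM and Tmem119 at 1.88 to 12.5 FPKM. The summed markers came to 3334 to 3887 FPKM without OGD, 3092 to 3254 FPKM in the other 3 OGD libraries and 2607 FPKM in OGD_PARP14 replicate 2. Marker lists of astrocytes, neurons, endothelium, oligodendrocyte lineage, fibroblasts and peripheral leukocytes summed to at most 10.4 FPKM in any library, and Gfap, Cldn5 and Cd3e were at or near 0. In these lists Aldh1l1 was at 3.50 to 5.49 FPKM, Mbp at 5.74 to 9.98 FPKM and Syn1 at 1.63 to 2.97 FPKM. Pecam1 was at 0.159 to 6.97 FPKM. In the list for plasmacytoid dendritic cells, Bst2 is itself an interferon-stimulated gene, Ly6d was listed at 0 and Siglech reached 0.0218 FPKM.

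Type I interferons bind a receptor made of Ifnar1 and Ifnar2, whose kinases phosphorylate STAT proteins, STAT2 among them. With IRF9 these form the complex ISGF3, which enters the nucleus and binds the interferon-stimulated response element in the promoters of many genes. Many of their products sense foreign nucleic acid, block steps of viral replication or dampen the signal again. Microglia keep a part of this programme active at rest and raise it in infection, ageing and injury.

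The promoters are shown as a description, and a part of the response element in the OGD differences below was not tested. The response element was searched on both strands as GAAA, any 2 bases and GAAA, which reads TTTC, any 2 bases and TTTC on the other strand, in the RefSeq windows of build GRCm38.p6 that run from 250 bases before to 50 bases after each gene's start. A window was found for 33 of the 43 names, and 18 of them (54.5%) held the motif, against 1079 of 27025 genes of the whole table (3.99%). Counting only the bases before the start gave 14 members (42.4%) against 936 genes (3.46%). The names were chosen from knowledge of the pathway, so the higher share is no result of these libraries. The 200 bases before the start are printed for 5 members, 5′ to 3′ on the strand of the gene, with motif matches in capitals. Isg15 (chr4:156200819-156201018, minus strand) was chosen for its 3 overlapping matches, and Ifit3 (chr19:34583329-34583528, plus strand) and Ifit3b (chr19:34607757-34607956, plus strand) because they share a gene model. Rsad2 (chr12:26456453-26456652, minus strand) has 1 match on the other strand, and Bst2 (chr8:71537473-71537672, minus strand) has 2 overlapping matches and was among the members with the smallest OGD differences.
Isg15: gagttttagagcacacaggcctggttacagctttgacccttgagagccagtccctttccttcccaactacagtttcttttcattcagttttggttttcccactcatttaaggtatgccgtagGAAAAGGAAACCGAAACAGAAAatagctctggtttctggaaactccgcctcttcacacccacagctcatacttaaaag
Ifit3: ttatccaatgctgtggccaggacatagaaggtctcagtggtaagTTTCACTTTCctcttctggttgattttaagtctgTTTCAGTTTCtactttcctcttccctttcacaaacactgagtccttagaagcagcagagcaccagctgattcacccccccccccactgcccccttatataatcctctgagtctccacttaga
Ifit3b: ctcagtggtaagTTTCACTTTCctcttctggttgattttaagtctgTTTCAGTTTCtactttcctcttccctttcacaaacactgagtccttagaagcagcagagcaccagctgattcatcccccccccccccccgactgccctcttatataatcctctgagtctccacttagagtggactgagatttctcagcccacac
Rsad2: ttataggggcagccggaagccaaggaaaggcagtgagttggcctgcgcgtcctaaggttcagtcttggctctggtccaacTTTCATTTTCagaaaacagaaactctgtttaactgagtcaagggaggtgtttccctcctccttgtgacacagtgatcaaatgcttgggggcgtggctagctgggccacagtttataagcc
Bst2: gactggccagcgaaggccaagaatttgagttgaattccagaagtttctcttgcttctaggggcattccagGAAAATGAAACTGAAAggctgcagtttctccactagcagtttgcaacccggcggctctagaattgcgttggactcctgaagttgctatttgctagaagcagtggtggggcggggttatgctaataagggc
The Ifit3 and Ifit3b windows are near copies. Aligned without gaps at their first match, 188 of 218 bases were identical (86.2%).

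The first comparison sets the libraries labelled OGD_Con against those labelled Con, which by their titles differ in OGD. All 41 models had a negative log2 fold change in OGD_Con against Con, with a median of -0.91, while the median over all models tested was -0.02. Both OGD_Con libraries lay below both Con libraries for 34 of the 41, where the same held for 35.8% of all models tested, and above them for 0 (30.7%). Of the 41, Mx2, Trim30c, Ifit3, Eif2ak2, Slfn5 and Rsad2 had the largest differences, and Ifi27l2a, Slfn2, Irf7 and Ifitm3 the smallest. In bulk RNA, fewer cells of a type and less RNA per cell cannot be told apart, and the summed microglial markers, lower in each of the 3 OGD libraries than in any library without OGD, moved with this result. Their part in it was not tested.

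Calls depended on the libraries in the fit. limma on log2(FPKM + 1), with p-values adjusted by Benjamini-Hochberg over all 11146 models and a threshold of 0.05, called 1 member lower with 8 libraries, where 0.108% of all models were called lower. It was Trim30c (log2 fold change -1.79, SE 0.15, adjusted p = 0.0364). An unadjusted p under 0.05 was reached by 30 members, all lower, where 11.2% of all models reached it lower and 8.02% higher. Without OGD_PARP14 replicate 2 the fit called 27 of 41 members lower and 0 higher, where 12.4% of all models were called lower and 10.7% higher. The fold changes of OGD_Con against Con are identical in both fits, and only the pooled spread differs. Leaving out OGD_PARP14 replicate 1 instead gave the same calls for this comparison by construction. A lone OGD_PARP14 library adds nothing to the pooled spread, so this is no second support. Leaving out any 1 of the other 6 libraries gave 0 calls among the members. Below, a member that fell is one called lower with 7 libraries, without OGD_PARP14 replicate 2, and statistics are from that fit unless 8 libraries are named.

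The second comparison sets OGD_PARP14 against PARP14, and shares no library with the first. With 8 libraries 38 of 41 models were negative, with a median of -0.72 against -0.07 over all models, and Trim30c was again the 1 member called lower (-1.38, SE 0.15, adjusted p = 0.0484) at a background of 0.0897%. An unadjusted p under 0.05 was reached by 23 members, all lower, where 9.01% of all models reached it lower and 5.5% higher. With 7 libraries 39 were negative, the median was -0.85, and 22 fell with 0 called higher, at a background of 5.17% lower and 5.54% higher. All 22 had also fallen in OGD_Con against Con. Leaving out OGD_PARP14 replicate 1 instead gave 15 lower, where 20.5% of all models were called lower, and 2 higher, Ifitm3 and Lgals3bp, against 10.9%, and leaving out any 1 of the other 6 libraries gave 0. The 5 that fell there but were not called here were Ifi204, Oasl1, Samhd1, Slfn8 and Sp100, and the difference between the comparisons is tested by the interaction below. Both OGD_PARP14 libraries lay below both PARP14 libraries for 34 of 41 members (26.5% of all models), and above them for 1, Lgals3bp (14.4%). Across the 41 models, the log2 fold changes of the 2 comparisons had a Pearson correlation of 0.68 with 8 libraries and 0.75 with 7, and of 0.91 over the 40 models without Ifit1bl1. Over all 11146 models it was 0.49 and 0.77. These points share libraries, and the values are a description.

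**Figure D1:**
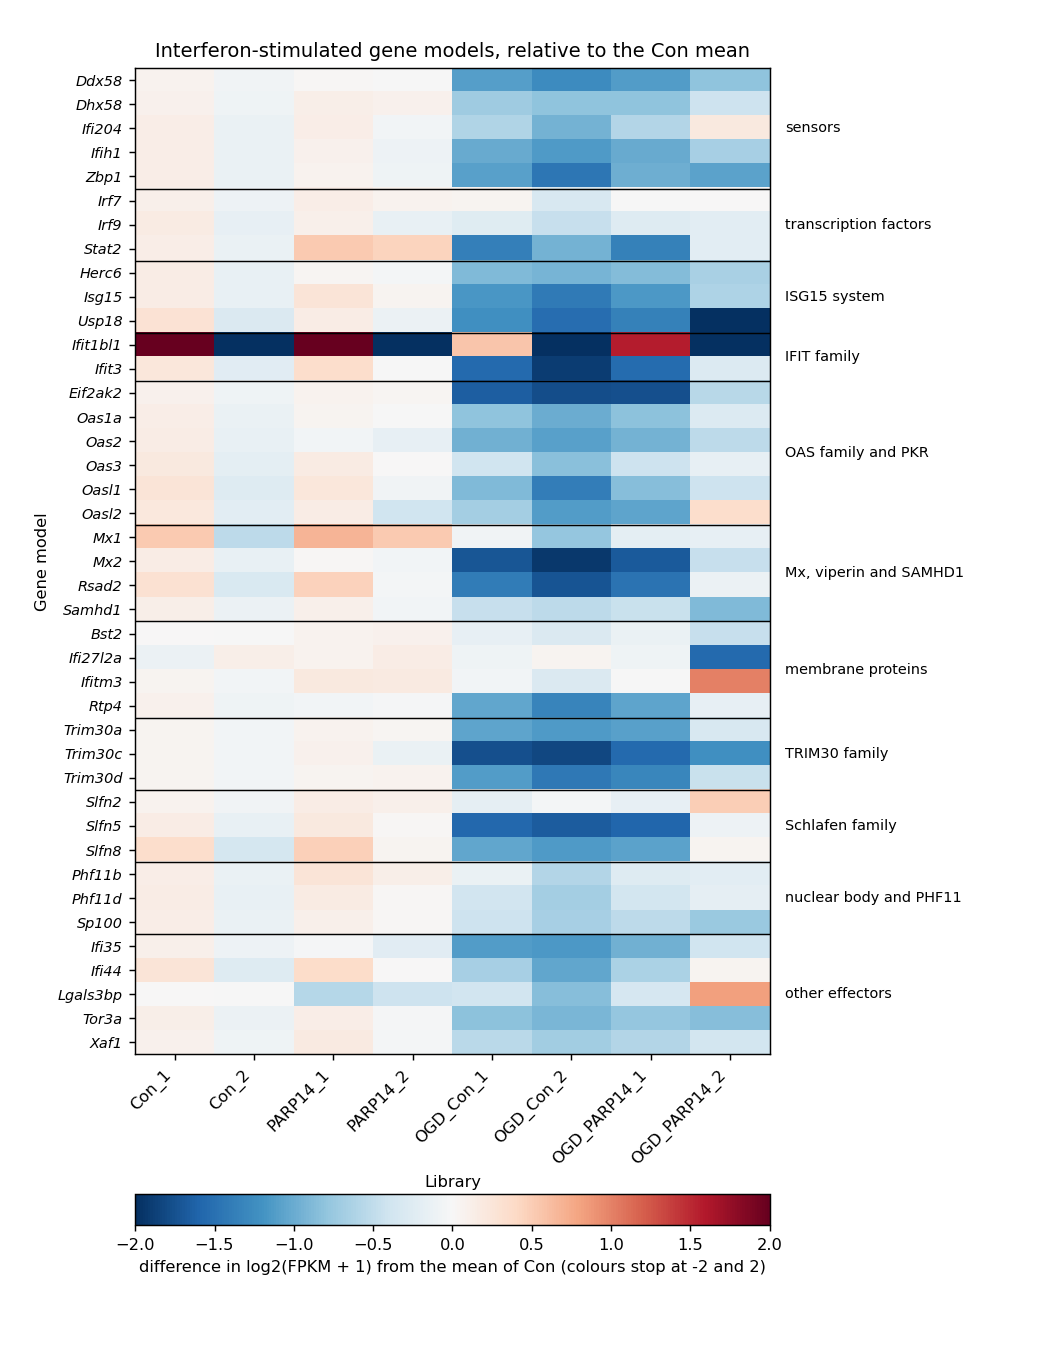
Each row is a gene model and each column a library, with the difference in log2(FPKM + 1) from the mean of the 2 Con libraries as colour, which stops at -2 and 2. The 3 OGD libraries left of OGD_PARP14_2 are blue in nearly every row, and OGD_PARP14_2 is paler in most rows and red for Ifitm3 and Lgals3bp.

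The 5 sensors fell in OGD_Con, and 4 of them fell in OGD_PARP14. Ddx58, at chr4:40203773-40239825, encodes RIG-I, a cytosolic receptor for viral RNA. It was at 50.8 and 45.6 (Con) and 48.7 and 47.8 FPKM (PARP14) without OGD, and at 22.01 and 19.5 (OGD_Con) and 21.8 and 27.2 FPKM (OGD_PARP14) with OGD. The 4 OGD libraries lay below the 4 without OGD. The log2 fold change was -1.18 (SE 0.095, adjusted p = 0.00306) in OGD_Con and -1.11 (SE 0.12, adjusted p = 0.00995) in OGD_PARP14. Ifih1, which encodes the long-RNA receptor MDA5, was at 31.2 and 25.7 (Con) and 30.2 and 26.2 FPKM (PARP14) without OGD, and at 13.6 and 12.4 (OGD_Con) and 13.6 and 17.5 FPKM (OGD_PARP14) with OGD. It likewise had no overlap between OGD and the rest, and fell, with log2 fold changes of -1.07 and -0.997 (adjusted p = 0.00744 and 0.0247). Dhx58 encodes LGP2, which tunes signalling by the other RNA helicases. It was at 53.8 and 48.1 (Con) and 55.1 and 54.2 FPKM (PARP14) without OGD, and at 30.5 and 28.8 (OGD_Con) and 28.7 and 38.0 FPKM (OGD_PARP14) with OGD, and fell, with log2 fold changes of -0.76 and -0.91 (adjusted p = 0.00641 and 0.0117).

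Zbp1 encodes a sensor of Z-form nucleic acid that can start necroptosis. It was at 61.3 and 51.2 (Con) and 58.6 and 53.0 FPKM (PARP14) without OGD, and at 25.8 and 19.9 (OGD_Con) and 27.9 and 26.1 FPKM (OGD_PARP14) with OGD. Here the library that stood apart was as low as the other OGD libraries. Zbp1 fell, with log2 fold changes of -1.27 in OGD_Con (SE 0.16, adjusted p = 0.00806) and -0.97 in OGD_PARP14 (SE 0.19, adjusted p = 0.0405). Ifi204 belongs to a family of DNA-binding proteins, and its model joins 6 gene names (Ifi204, Mndal, Gm38050, Ifi211, Ifi203 and Ifi205) over chr1:173747293-174031755, so its value cannot be given to 1 gene. The model was at 51.0 and 41.9 (Con) and 50.7 and 44.5 FPKM (PARP14) without OGD, and at 30.2 and 23.6 (OGD_Con) and 30.4 and 53.3 FPKM (OGD_PARP14) with OGD. In the last of these libraries it was higher than in any other. It fell in OGD_Con (-0.77, adjusted p = 0.0285), and in OGD_PARP14 the log2 fold change was -0.63 (adjusted p = 0.108) with 7 libraries and -0.23 (adjusted p = 0.710) with 8.

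Of the 3 transcription factors only Stat2 fell. Stat2 encodes the STAT subunit particular to the interferon complex. It was at 50.9 and 41.8 (Con) and 66.6 and 63.2 FPKM (PARP14) without OGD, and at 17.3 and 23.5 (OGD_Con) and 17.5 and 39.6 FPKM (OGD_PARP14) with OGD. Every OGD library lay below every library without OGD, and both PARP14 libraries lay above both Con libraries. The log2 fold change was -1.16 (SE 0.17, adjusted p = 0.0124) in OGD_Con and -1.83 (SE 0.21, adjusted p = 0.0118) in OGD_PARP14. The difference of these 2 values, -0.67 (SE 0.27), had an adjusted p of 1.0 with an unadjusted p of 0.0522. Irf9, whose product joins the STATs to DNA, shares its model with Rnf31, and the model was at 15.9 and 12.6 (Con) and 15.2 and 12.7 FPKM (PARP14) without OGD, and at 11.8 and 10.1 (OGD_Con) and 11.6 and 12.1 FPKM (OGD_PARP14) with OGD. The OGD libraries were the 4 lowest, by a small margin, and the log2 fold changes of -0.35 and -0.23 were not called (adjusted p = 0.161 and 0.458). Irf7 encodes the factor that amplifies interferon gene transcription. It was at 88.5 and 77.2 (Con) and 90.7 and 87.1 FPKM (PARP14) without OGD, and at 85.9 and 66.0 (OGD_Con) and 82.2 and 83.0 FPKM (OGD_PARP14) with OGD, with overlap between OGD_Con and Con. Its log2 fold changes were -0.13 (SE 0.15, adjusted p = 0.543) and -0.11 (SE 0.18, adjusted p = 0.723).

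All 3 genes of the ISG15 system fell in both comparisons. Isg15, at chr4:156199424-156200818 on the minus strand, encodes a ubiquitin-like modifier, and its promoter is printed above. It was at 294 and 237 (Con) and 314 and 272 FPKM (PARP14) without OGD, and at 118 and 98.4 (OGD_Con) and 119 and 172 FPKM (OGD_PARP14) with OGD. No OGD library reached the lowest library without OGD, and the mean without OGD was 2.5 times that of the 3 OGD libraries. Isg15 fell, with log2 fold changes of -1.28 in OGD_Con (SE 0.15, adjusted p = 0.00746) and -1.30 in OGD_PARP14 (SE 0.19, adjusted p = 0.0210). Usp18 encodes the protease that removes ISG15 and also restrains the interferon receptor. It was at 97.9 and 66.0 (Con) and 89.1 and 73.9 FPKM (PARP14) without OGD, and at 33.9 and 27.3 (OGD_Con) and 30.9 and 19.5 FPKM (OGD_PARP14) with OGD. Unlike Isg15, it was lowest of all in OGD_PARP14 replicate 2. It fell, with a log2 fold change of -1.37 in both comparisons (adjusted p = 0.0158 and 0.0416). Herc6, in mouse the main ligase for ISG15, lies in a model joined with 4930533I22Rik and Gm45193. That model was at 14.8 and 11.7 (Con) and 13.6 and 12.8 FPKM (PARP14) without OGD, and at 6.69 and 6.41 (OGD_Con) and 6.79 and 8.07 FPKM (OGD_PARP14) with OGD, and fell, with log2 fold changes of -0.91 and -0.86 (adjusted p = 0.00933 and 0.0299).

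**Figure D2:**
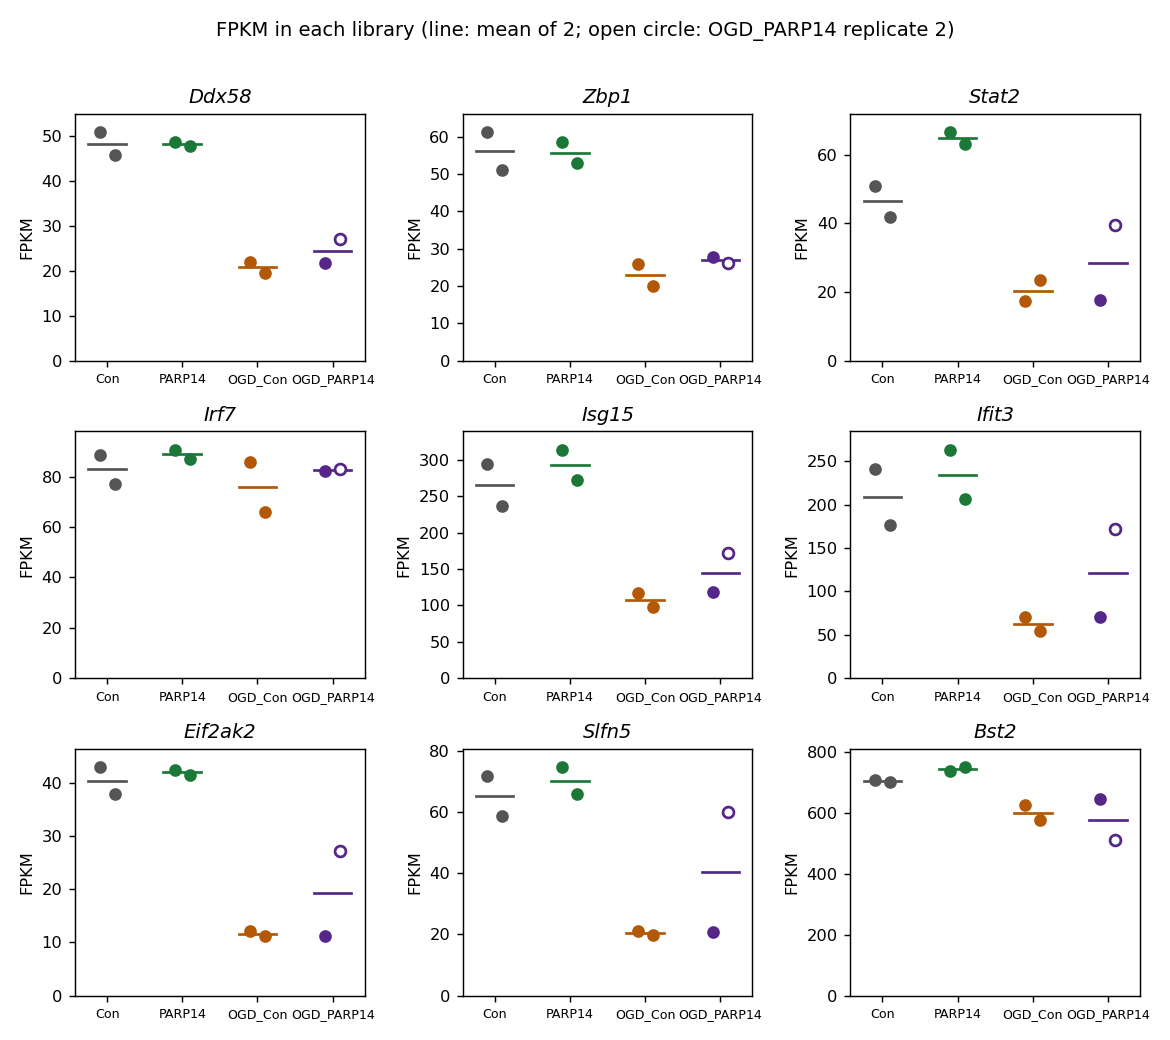
Each panel plots FPKM of 1 gene model on an axis from 0, with a point per library, a line at the mean of the 2 libraries of a group and an open circle for OGD_PARP14 replicate 2. Ddx58, Zbp1, Stat2, Isg15, Ifit3, Eif2ak2 and Slfn5 are lower in the OGD groups, Irf7 overlaps, Bst2 differs by a small part of its level, and the open circle of Slfn5 at 60.0 FPKM lies among the libraries without OGD.

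Of the 2 IFIT models, the one named Ifit3 and Ifit3b fell in both comparisons. IFIT proteins bind viral RNA and hold back its translation. The model, at chr19:34583531-34613401, was at 241 and 177 (Con) and 263 and 206 FPKM (PARP14) without OGD, and at 70.0 and 54.5 (OGD_Con) and 70.8 and 171 FPKM (OGD_PARP14) with OGD. The 3 lowest libraries were the OGD libraries other than OGD_PARP14 replicate 2, which came just under the lowest library without OGD. The log2 fold change was -1.72 (SE 0.22, adjusted p = 0.00846) in OGD_Con and -1.70 (SE 0.27, adjusted p = 0.0247) in OGD_PARP14. Since both copies are in 1 model, their shares are not known. Ifit1bl1 has 5 overlapping models on the minus strand of the same locus, and the signal was divided among them differently from library to library. The model used was at 44.7 and 0.00516 (Con) and 72.9 and 0 FPKM (PARP14) without OGD, and at 8.98 and 0.116 (OGD_Con) and 19.1 and 0.130 FPKM (OGD_PARP14) with OGD. Summed over the 5 models the values were 98.2 and 17.1, 92.0 and 21.97, 14.3 and 2.66, and 26.1 and 12.3 FPKM in the same order. Replicate 1 was above replicate 2 in every group, and the 2 fold changes of the model used, -1.02 (SE 2.75) and 1.23 (SE 3.37), are smaller than their errors.

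In the OAS family with PKR, 4 of 6 members fell in OGD_Con and 3 in OGD_PARP14. Eif2ak2 encodes PKR, the kinase that halts translation on double-stranded RNA. It was at 43.0 and 38.0 (Con) and 42.5 and 41.5 FPKM (PARP14) without OGD, and at 12.1 and 11.1 (OGD_Con) and 11.2 and 27.3 FPKM (OGD_PARP14) with OGD. The OGD libraries did not overlap with the rest, and it fell, with log2 fold changes of -1.71 (SE 0.091, adjusted p = 0.00139) and -1.82 (SE 0.11, adjusted p = 0.00321). The OAS enzymes make short oligoadenylates that activate RNase L. The model of Oas1a, joined with Oas1g, was at 50.2 and 41.5 (Con) and 47.7 and 45.4 FPKM (PARP14) without OGD, and at 25.8 and 22.5 (OGD_Con) and 25.3 and 37.5 FPKM (OGD_PARP14) with OGD, and fell, with log2 fold changes of -0.89 and -0.85 (adjusted p = 0.0102 and 0.0320). Oas3 was at 58.9 and 45.1 (Con) and 57.9 and 51.8 FPKM (PARP14) without OGD, and at 38.8 and 28.5 (OGD_Con) and 38.3 and 45.8 FPKM (OGD_PARP14) with OGD. Its log2 fold changes of -0.62 and -0.51 were not called (adjusted p = 0.0775 and 0.231). Oas2 also fell in both comparisons (-1.02 and -0.82). Oasl1, which in mouse represses translation of Irf7, fell in OGD_Con (-1.13). Oasl2 ranged from 20.5 to 31.7 FPKM without OGD and from 12 to 16.7 FPKM in the 3 OGD libraries, and its adjusted p was 0.0650 in OGD_Con.

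Of the Mx proteins, viperin and SAMHD1, 3 of 4 fell in OGD_Con and 2 in OGD_PARP14. Mx2, a dynamin-like GTPase that traps viral components, had the largest ratio of all members, with a mean without OGD 4.55 times that of the 3 OGD libraries. It was at 10.7 and 8.53 (Con) and 9.80 and 9.15 FPKM (PARP14) without OGD, and at 2.22 and 1.79 (OGD_Con) and 2.30 and 6.70 FPKM (OGD_PARP14) with OGD, and fell, with log2 fold changes of -1.82 (SE 0.13, adjusted p = 0.00250) and -1.67 (SE 0.16, adjusted p = 0.00816). Rsad2 encodes viperin, a radical SAM enzyme that makes a chain-terminating nucleotide. It was at 54.1 and 35.2 (Con) and 60.4 and 42.4 FPKM (PARP14) without OGD, and at 15.9 and 12.4 (OGD_Con) and 15.0 and 39.9 FPKM (OGD_PARP14) with OGD, where replicate 2 lay within the range without OGD. It fell, with log2 fold changes of -1.57 (SE 0.27, adjusted p = 0.0182) and -1.69 (SE 0.33, adjusted p = 0.0405). Samhd1 encodes an enzyme that degrades deoxynucleotides. It was at 98.3 and 83.4 (Con) and 97.6 and 87.1 FPKM (PARP14) without OGD, and at 65.3 and 62.5 (OGD_Con) and 66.2 and 48.5 FPKM (OGD_PARP14) with OGD, with the lowest in OGD_PARP14 replicate 2. It fell in OGD_Con (-0.50, adjusted p = 0.0342), and the value in OGD_PARP14 was -0.47 (adjusted p = 0.0897). Mx1 ranged from 13.8 to 33.3 FPKM without OGD and from 11.5 to 19.3 FPKM in the 3 OGD libraries, with overlap.

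The membrane proteins held the 3 most abundant members, Ifi27l2a, Bst2 and Ifitm3, of which 0 were called. Rtp4, a chaperone of membrane receptors in a model joined with Gm45338, was the only 1 of 4 that fell, with log2 fold changes of -1.18 and -1.01 (adjusted p = 0.00494 and 0.0197). Ifi27l2a was the most abundant member, at 869 and 1032 (Con) and 991 and 1050.2 FPKM (PARP14) without OGD, and at 890.2 and 989 (OGD_Con) and 895 and 323 FPKM (OGD_PARP14) with OGD. Leaving replicate 2 of OGD_PARP14 aside, the groups overlapped, and the log2 fold changes were -0.014 (SE 0.11, adjusted p = 0.941) and -0.19 (SE 0.14, adjusted p = 0.420). Bst2 encodes tetherin, which holds budding virions at the cell surface. It was at 708 and 701 (Con) and 737 and 751 FPKM (PARP14) without OGD, and at 626 and 576 (OGD_Con) and 646 and 509.9 FPKM (OGD_PARP14) with OGD. The OGD libraries were below the rest without overlap, but by only -0.23 (SE 0.074, adjusted p = 0.0821) and -0.20 (SE 0.091, adjusted p = 0.210), which were not called. Ifitm3, which blocks fusion of viruses with endosomes, was at 473 to 567 FPKM without OGD and at 402 to 493 FPKM in the 3 OGD libraries.

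All 3 TRIM30 genes fell in both comparisons. They form a mouse cluster of ubiquitin ligases, of which Trim30a is known to dampen Toll-like receptor signalling. Trim30c, at chr7:104382065-104400837, was at 15.3 and 14.0 (Con) and 15.6 and 13.3 FPKM (PARP14) without OGD, and at 3.62 and 3.43 (OGD_Con) and 4.30 and 5.65 FPKM (OGD_PARP14) with OGD. All 4 OGD libraries were far below the others, and its calls with 8 libraries are given above. Trim30a was at 98.3 and 91.9 (Con) and 99.9 and 97.3 FPKM (PARP14) without OGD, and at 45.4 and 42.7 (OGD_Con) and 44.3 and 75.7 FPKM (OGD_PARP14) with OGD. It fell, with log2 fold changes of -1.09 (SE 0.076, adjusted p = 0.00222) and -1.14 (SE 0.093, adjusted p = 0.00597). Trim30d was at 44.6 and 41.3 (Con) and 44.7 and 45.2 FPKM (PARP14) without OGD, and at 19.3 and 15.3 (OGD_Con) and 16.8 and 31.3 FPKM (OGD_PARP14) with OGD, and fell, with log2 fold changes of -1.27 and -1.37 (adjusted p = 0.00462 and 0.0103). Near-identical stretches among these neighbours could share fragments, so their separate values are uncertain.

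Of the 3 Schlafen genes, 2 fell in OGD_Con and 1 in OGD_PARP14. Slfn5 was at 71.6 and 58.5 (Con) and 74.6 and 65.8 FPKM (PARP14) without OGD, and at 21.1 and 19.6 (OGD_Con) and 20.8 and 60.0 FPKM (OGD_PARP14) with OGD. The mean without OGD was 3.3 times that of the 3 OGD libraries. It fell, with log2 fold changes of -1.62 (SE 0.13, adjusted p = 0.00281) and -1.70 (SE 0.15, adjusted p = 0.00720). Slfn2, known in mouse for keeping T cells quiescent, was at 271 and 248 (Con) and 287 and 278 FPKM (PARP14) without OGD, and at 228 and 253 (OGD_Con) and 231 and 364 FPKM (OGD_PARP14) with OGD. It overlapped between groups, with log2 fold changes of -0.11 (adjusted p = 0.410) and -0.29 (adjusted p = 0.159), and with 8 libraries the second was 0.04. Slfn8 fell in OGD_Con (-1.09, adjusted p = 0.0413) and was not called in OGD_PARP14 (-1.33, adjusted p = 0.0626).

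Among Sp100 and the PHF11 genes, Sp100, a component of nuclear bodies, fell in OGD_Con (-0.54, adjusted p = 0.0397). Phf11b was at 65.1 and 54.3 (Con) and 71.5 and 64.8 FPKM (PARP14) without OGD, and at 54.4 and 39.4 (OGD_Con) and 49.7 and 51.5 FPKM (OGD_PARP14) with OGD. Phf11d was at 45.5 and 37.0 (Con) and 45.9 and 41.5 FPKM (PARP14) without OGD, and at 31.4 and 25.1 (OGD_Con) and 31.4 and 36.0 FPKM (OGD_PARP14) with OGD. Neither was called, with log2 fold changes of -0.35 and -0.45 for Phf11b and of -0.53 and -0.46 for Phf11d. Of the other effectors Tor3a, Ifi35 and Xaf1 fell in both comparisons. Tor3a, an ATPase of the torsin family, was at 101.9 and 85.5 (Con) and 103 and 91.4 FPKM (PARP14) without OGD, and at 52.6 and 48.9 (OGD_Con) and 54.3 and 51.2 FPKM (OGD_PARP14) with OGD, so that here too OGD_PARP14 replicate 2 was like the other OGD libraries. It fell, with log2 fold changes of -0.87 (SE 0.12, adjusted p = 0.0102) and -0.82 (SE 0.14, adjusted p = 0.0321). Ifi44 had the lowest levels of these, 4 to 6.67 FPKM without OGD and 1.89 to 2.83 FPKM in the 3 OGD libraries.

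Lgals3bp, a secreted glycoprotein that binds galectins, moved in opposite directions in the 2 comparisons, with no call in either. It was at 334 and 330 (Con) and 224 and 249.45 FPKM (PARP14) without OGD, and at 255 and 184 (OGD_Con) and 263 and 588 FPKM (OGD_PARP14) with OGD. OGD_Con lay below Con, and OGD_PARP14 lay above PARP14. The fold changes were -0.61 (SE 0.16, adjusted p = 0.0532) and 0.16 (SE 0.20, adjusted p = 0.650) with 7 libraries, and the second was 0.73 (adjusted p = 0.412) with 8.

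**Figure D3:**
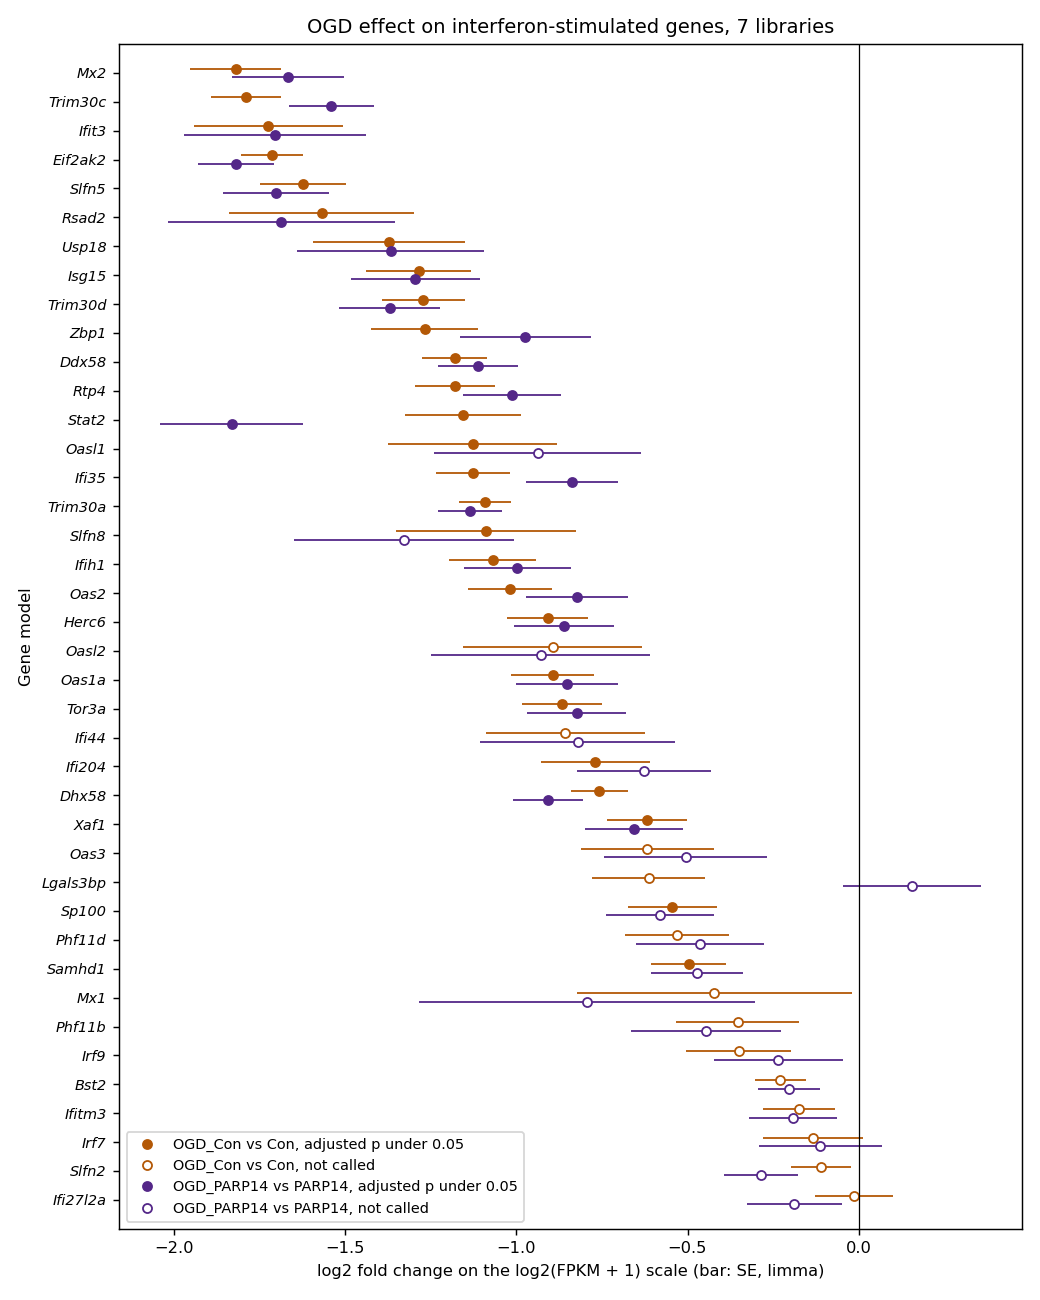
For 40 models (all but Ifit1bl1) the points give the log2 fold change of OGD_Con against Con and of OGD_PARP14 against PARP14 in the fit of 7 libraries, with bars of 1 SE from limma, filled where the adjusted p was under 0.05. Stat2 in OGD_PARP14 (-1.83), Mx2 in OGD_Con (-1.82) and Eif2ak2 in OGD_PARP14 (-1.82) lie farthest left, Ifi27l2a lies at -0.014 and -0.19, and Lgals3bp is the one model with a point to the right of 0.

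Of the 3 OGD libraries other than OGD_PARP14 replicate 2, each was below all 4 libraries without OGD for 33 of 41 members, against 26.7% of all models. The 8 with overlap were Ifi27l2a, Ifit1bl1, Ifitm3, Irf7, Lgals3bp, Mx1, Phf11b and Slfn2. With all 4 OGD libraries it was 26 of 41 (15.8% of all models). The median log2 difference of the 3 OGD libraries from the 4 without was -0.89 for the members and -0.02 for all models. Between members, the fold change in OGD_Con had a correlation of 0.38 with the log2 level in Con over 41 models, as a description, since both use the Con libraries.

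The promoter motif and the size of the difference can be set side by side. The 17 tested members with the motif had a median log2 fold change of -1.09 in OGD_Con, and 12 of them fell. The 14 with a window and no match had a median of -0.62, and 7 fell. The ranges overlapped over nearly all of their length, from -1.72 to -0.18 with the motif and from -1.79 to -0.11 without. Isg15, Ifit3 and Rsad2, printed above, fell, and Bst2 with its 2 matches was not called. The lack of a match says only that these letters are not in this window.

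The third comparison sets the libraries labelled OGD_PARP14 against those labelled OGD_Con. limma called 0 members in OGD_PARP14 against OGD_Con with 8 libraries, at a background of 0.0%, and 0 with 7 libraries, where 0.0359% of models were called lower and 0.0628% higher. An unadjusted p under 0.05 was reached by 1 member with 8 libraries, Trim30c (0.39, SE 0.15, adjusted p = 0.571). Of the 11146 models, 222 reached it lower and 165 higher. The median was 0.34 with 8 libraries and 0.09 with 7, the fits differing in OGD_PARP14 replicate 2. Both OGD_PARP14 libraries were above both OGD_Con libraries for 15 of 41 members (13.4% of all models) and below them for 0 (19.2%). Most of the 15 cleared OGD_Con by less than 1 FPKM, among them Ifih1, Zbp1, Isg15, Ifit3 and Mx2. Ifih1 was at 13.608 FPKM in OGD_PARP14 replicate 1 and at 13.579 FPKM in OGD_Con replicate 1. Without OGD_PARP14 replicate 1, where the library that stood apart is the only one of its group, 21 members were called higher, against 15.8% of all models, and 1, Ifi27l2a, lower, against 26.0%.

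The fourth comparison, PARP14 against Con, had 0 calls among the members with 8 and with 7 libraries. The background was 0.00897% lower and 0.0% higher with 8 libraries, and 0.0269% in each direction with 7. An unadjusted p under 0.05 was reached by 0 members with 8 libraries, where 51 of the 11146 models reached it lower and 59 higher. Stat2 had a log2 fold change of 0.48 and Lgals3bp of -0.49. The median was 0.06. Both PARP14 libraries lay above both Con libraries for Bst2, Dhx58, Ifitm3, Slfn2, Stat2 and Trim30d (6 of 41, 12.4% of all models) and below for Lgals3bp (1 of 41, 15.0%). The interaction, which is the difference of the 2 OGD effects, called 0 members with 8 libraries (background 0.0% lower and 0.00897% higher) and 0 with 7 (0.0449% and 0.0359%). With 8 libraries its only unadjusted p under 0.05 among the members was that of Lgals3bp, where 118 of the 11146 models reached it lower and 93 higher. The median interaction was 0.25 with 8 libraries and 0.02 with 7. Without OGD_PARP14 replicate 1 the interaction called 11 members higher, against 11.1% of all models, and 1, Ifi27l2a, lower, against 18.5%.

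OGD_PARP14 replicate 2 lay above the other 3 OGD libraries and below the 4 without OGD for 20 of 41 members, where 5.39% of all models did so. Only models whose other 3 OGD libraries lay below the 4 without OGD could be counted. These were 33 of the 41 members and 26.7% of all models, so a part of this gap repeats the OGD difference. Among them the counts were 20 of 33 members and 601 of 2973 models. It was above the other 3 OGD libraries for 30 members (34.4% of all models) and below them for 5 (49.6%), which were Bst2, Ifi27l2a, Samhd1, Sp100 and Usp18. Its median log2 difference from the mean of the other OGD libraries was 0.48 for the members and -0.10 for all models, and from the libraries without OGD -0.45 and -0.12. Slfn5 was at 60.0 FPKM there and at 19.6 to 21.1 FPKM in the other OGD libraries. Zbp1 and Tor3a stayed within the range of the other OGD libraries. For 5 members it was above all 4 libraries without OGD (26.7% of all models). Ifitm3 was at 996 FPKM there and at no more than 567 elsewhere, and Lgals3bp was at 588 and at no more than 334. Slfn2, Oasl2 and Ifi204 were the others. This library differed outside the interferon genes too, with the microglial marker Fcrls at 73.97 FPKM against 1472 to 2046 FPKM in the others.

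**Figure D4:**
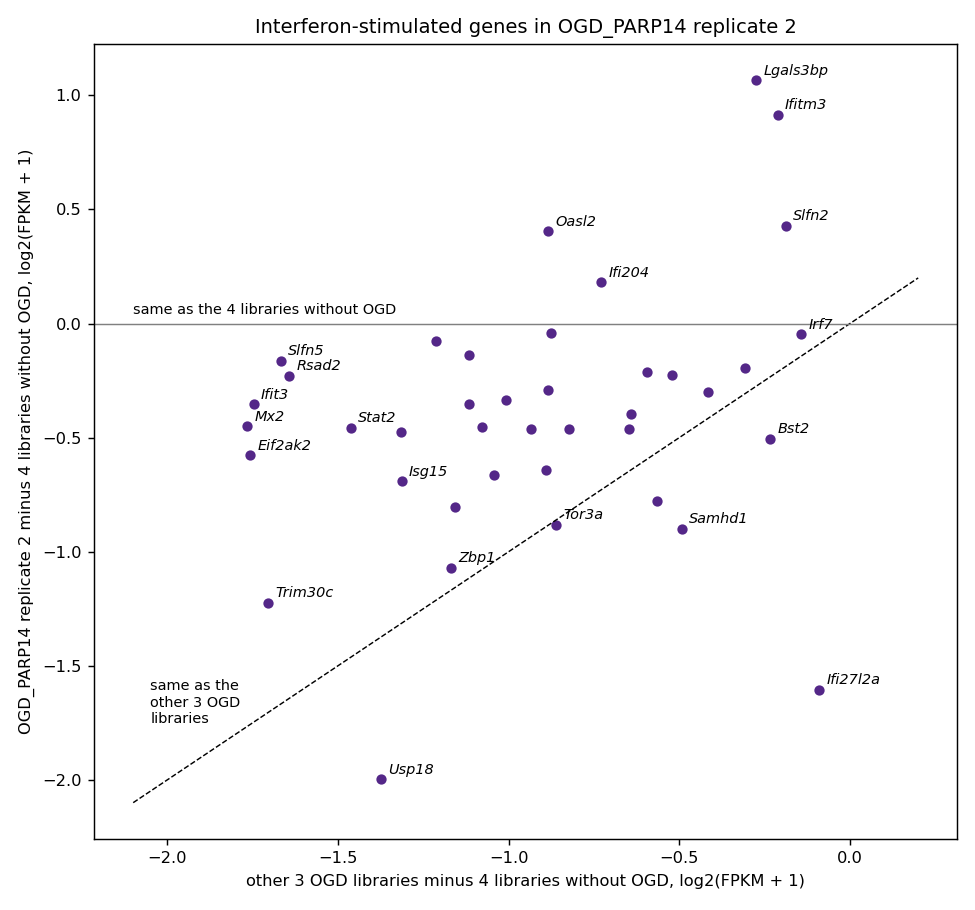
Each point is 1 of 40 models (all but Ifit1bl1). The horizontal axis gives the 3 other OGD libraries minus the 4 without OGD and the vertical axis gives OGD_PARP14 replicate 2 minus the 4 without OGD, both as differences of mean log2(FPKM + 1). Most points lie between the dashed line, where the library would equal the other OGD libraries, and 0, while Usp18 and Ifi27l2a lie below the line.

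The replicates of a group differed in a shared direction over the members. Replicate 1 was above replicate 2 for 40 of 41 members in Con, where it was so for 48.4% of all models, and Ifi27l2a was the exception. The same held for 36 in PARP14 (47.7%) and 38 in OGD_Con (52.3%). In OGD_PARP14 it held for 8 (58.1%). The median difference of replicate 1 from replicate 2 was 0.27, 0.14, 0.21 and -0.42 on the log2 scale in the same order. These are smaller than the median OGD difference of -0.91. Whether a replicate number marks an experiment is not stated in the labels.

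The rest of the pathway was read from lists that were also chosen with earlier results known. With 8 libraries limma called 0 genes of any of these lists in either OGD comparison. In OGD_Con an unadjusted p under 0.05 was then reached, lower and higher, by 22 and 1 of 45 other interferon-stimulated genes, 5 and 0 of 17 adaptors, 4 and 1 of 10 negative regulators, 2 and 0 of 10 JAK, STAT and IRF genes and 1 and 0 of 4 receptor genes. Over all models the shares were 11.2% lower and 8.02% higher, so the counts of the receptor and JAK, STAT and IRF lists were near them. In OGD_PARP14 the counts were 21 and 1, 4 and 0, 4 and 0, 1 and 1, and 1 and 0 in the same order, and the shares over all models 9.01% and 5.5%. The ligand genes were hardly detected. Of 18 type I interferon genes 16 were listed at 0 in every library, and the highest value of Ifnb1 and Ifnz was 0.0997 FPKM. Of the receptor genes Ifnar1, Ifnar2, Ifngr1 and Ifngr2, 0 were called with 7 libraries. Ifnar1 was at 12.2 to 16.0 FPKM in the 7 libraries and at 20.1 FPKM in OGD_PARP14 replicate 2. The Ifnar2 model is joined with Gm21970 and Il10rb.

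With 7 libraries, 3 of 10 JAK, STAT and IRF genes fell and 0 were called higher in OGD_Con, beside 12.4% and 10.7% of all models. Among the 3 were Irf5 (-0.67, adjusted p = 0.0226) and Irf3 (-0.34, adjusted p = 0.0465), both factors of interferon induction. Neither was called in OGD_PARP14, with replicate 1 alone (-0.56 and -0.26). In OGD_Con 5 genes of the list were negative and 5 positive, with a median of -0.01. Of 17 adaptors and kinases of nucleic acid sensing, 6 fell and 2 were called higher in OGD_Con, where 12.4% of all models were called lower and 10.7% higher, so that the count of higher genes was near the background. Those that fell were Trex1 (-0.99), Adar (-0.98), Tlr3 (-0.97), Myd88 (-0.77), Irak4 (-0.53) and Mavs (-0.34), and Tlr9 (0.80) and Ticam2 (0.69) rose. Trex1 degrades cytosolic DNA and Adar edits double-stranded RNA, and both are themselves interferon-induced. In OGD_PARP14, with replicate 1 alone, Trex1 (-1.57), Myd88 (-1.10), Tlr3 (-1.01) and Adar (-0.99) fell, and Tlr9 (0.90) and Ticam2 (0.66) rose. The rises were not seen in OGD_PARP14 replicate 2. Tlr9 was at 11.9 FPKM there and Ticam2 at 12.4 FPKM, both below every library without OGD. Of the falls, that of Trex1 was not seen in that library, at 17.967 FPKM against 15.061 to 20.904 FPKM without OGD. Tlr3 at 6.1715 FPKM and Adar at 20.999 FPKM were only a little below the lowest library without OGD (6.2678 and 23.495 FPKM). Myd88, at 37.076 FPKM, was as low there as in the other OGD libraries. The models of Trex1, Ticam2 and Myd88 are joined with Atrip, Tmed7 and Gm10157. Of 10 negative regulators, 4 fell and 2 rose in OGD_Con, beside the same background. Socs3, a feedback inhibitor of JAK kinases, fell in both comparisons (-1.06, adjusted p = 0.00197, and -1.12, adjusted p = 0.00514).

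Of 45 other interferon-stimulated genes tested, 23 fell and 0 were called higher in OGD_Con (12.4% and 10.7% of all models), with a median of -0.63. In OGD_PARP14 15 fell (5.17% of all models), with a median of -0.51. Gm12250, an interferon-inducible GTPase gene, had the largest difference of log2(FPKM + 1) in the list in OGD_Con, from 25.8 and 22.2 FPKM in Con to 3.25 and 2.86 FPKM in OGD_Con (-2.62, adjusted p = 0.000578). Its PARP14 libraries were at 17.7 and 17.8 FPKM and its OGD_PARP14 libraries at 2.00 and 8.84 FPKM. The model named Ifit2, a short minus-strand locus with no annotated transcript, had a larger ratio at lower levels, from 6.52 and 6.71 FPKM in Con to 0.894 and 0.420 FPKM in OGD_Con (-2.22, adjusted p = 0.00395). It was at 9.16 and 6.48 FPKM with the PARP14 label and at 0.118 and 6.49 FPKM with OGD_PARP14, where the log2 fold change was -2.96 with 7 libraries (adjusted p = 0.00597) and -1.59 with 8 (adjusted p = 0.414). Pml, which organizes nuclear bodies with Sp100, fell, with log2 fold changes of -1.67 and -1.05, and Rnf213, a large ubiquitin ligase, fell too (-1.59 and -1.56). The Rnf213 model is joined with Mir1932. Parp9 and Dtx3l, partners in 1 complex that acts on interferon signalling, fell, with log2 fold changes of -1.12 and -0.89 in OGD_Con and of -1.14 and -0.94 in OGD_PARP14. Members of the list such as Ifi27, Shisa5 and Ifitm2 were not called, and Ifi27 was at 6.40 to 8.42 FPKM without OGD and at 9.82 to 10.4 FPKM in the 3 OGD libraries.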

How the data were processed

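The authors deposited FPKM per gene model and library. Per the labels' protocols, poly(A) RNA went into dUTP libraries with unique molecular identifiers and was sequenced in pairs. HISAT, StringTie, edgeR and mm9 are named per the submitters' processing notes, without versions, while 96.2% of the Ensembl models in the deposited table have GENCODE M21 coordinates, built on GRCm38. Coordinates are as deposited. StringTie spreads fragments over assembled transcripts, so joined or overlapping models (7 of the 41 members' models are joined) can trade fragments.

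The members, lists and rules were chosen with earlier results of these data known. A name was looked up in each model's names, an exact name first, then the highest mean. limma 3.58.1 (R 4.3.3, lmFit and eBayes, trend and robust off) was fitted to log2(FPKM + 1) with 4 group means and 4 residual degrees of freedom, or 3 without 1 library, over 11146 named models with at least 1 FPKM in at least 2 libraries. A lone OGD_PARP14 library was then assumed to vary like the other groups. A log2 fold change is a difference of log2(FPKM + 1) and so is too small for low genes. The fit was tested on simulated data. Full values were given, by rule, for the sensors, transcription factors and ISG15 system, the 2 most abundant members of other classes, members called with 8 libraries and the 5 smallest p per OGD comparison. Promoters come from RefSeq (GRCm38.p6). Alternatives were a replicate block, other pseudocounts, filters and scalings, an intensity trend, only the libraries compared, and each library left out. Some genes of the marker and pathway lists are not reported here.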

Additional observations from a re-analysis of the deposited data

Results flagged for a closer look

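Lgals3bp was flagged because OGD_Con lay below Con while OGD_PARP14 lay above PARP14. The difference of its OGD effects was 1.35 on the log2 scale with 8 libraries, with an adjusted p of 0.824 from limma, and 0.77 without OGD_PARP14 replicate 2 (adjusted p = 1.0), so it was not called in either fit.

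A pair of gene models outside the comparisons carried signal. The Ifit1bl1 model at chr19:34592891-34601956, the 1 of 5 whose transcripts are annotated as protein coding, was not used because another had the higher mean. It was at 15.2 and 6.37 (Con) and 19.0 and 13.001 FPKM (PARP14) without OGD, and at 5.06 and 1.23 (OGD_Con) and 5.57 and 4.50 FPKM (OGD_PARP14) with OGD. Here the 4 OGD libraries were below the 4 without OGD. A model named Lgals3bp on the plus strand, opposite to the gene, at chr11:118393347-118393889, was at 15.6 FPKM in OGD_PARP14 replicate 2 and at 0 to 0.0152 FPKM elsewhere, in the library where the gene's own model was highest.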

How the results depend on the processing

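The direction of the medians in both OGD comparisons held under every alternative. Counts of calls did not. In OGD_Con against Con, 0 members were called lower with the replicate block, 2 with an intensity trend, 3 with a pseudocount of 5, 3 with a filter of 5 FPKM, 22 with only the libraries compared, and 32 with the replicate block without OGD_PARP14 replicate 2, an alternative added after seeing the data. In OGD_PARP14 against PARP14 the count was 0 with the replicate block, a pseudocount of 0.1, no filter, quantile normalization, median centring or only the libraries compared, and 30 with the block without that library, where the median was -1.03. The median of OGD_PARP14 against OGD_Con was then -0.0073.

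Leaving out each library in turn gave 0 to 27 members lower in OGD_Con against Con (medians -1.11 to -0.74). In OGD_PARP14 against PARP14 it gave 0 to 22 lower and 0 to 2 higher (medians -0.85 to -0.44), in OGD_PARP14 against OGD_Con 0 to 21 higher and 0 to 1 lower (medians 0.09 to 0.56), and in the interaction 0 to 12. The median of PARP14 against Con ranged from -0.07 to 0.18.

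Members near 0 or with an unstable model changed sign. The fold change of Ifi27l2a in OGD_Con was 0.013 with median centring and -0.14 to 0.11 over the libraries left out, that of Irf7 -0.32 to 0.053, and that of Ifit1bl1 -3.78 to 1.73. In OGD_PARP14, Irf7 was at 0.0105 with quantile normalization, Slfn2 at -0.29 with the block without OGD_PARP14 replicate 2 and -0.29 to 0.37 over the libraries left out, Ifi204 at -0.63 to 0.16 and Ifit1bl1 at -3.95 to 2.25. The cause was not tested. Replicate deviations of same-numbered libraries correlated by 0.0136 to 0.124 over all models in the 6 pairs of groups, not above 0.1 in every pair, so the numbers were not taken to pair the samples. Whether they mark the 2 independent experiments is not known, and replicate 1 was the higher for 36 to 40 of 41 members in Con, PARP14 and OGD_Con. An estimated depth of 13.5 to 17.0 M fragments and 2 libraries per group limit the precision, for low members most.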
